A study of Mus musculus with 12 samples.

Results

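The cell cycle inhibitors and the Gadd45 family, 10 genes whose products hold back cell division or answer growth arrest and stress signals, were followed in the liver and small intestine of corticosterone-treated mice. They are 10 of the 55416 genes listed in each table, and were picked by symbol: Cdkn1a, Cdkn1b, Cdkn1c, Cdkn2b, Cdkn2c, Gadd45a, Gadd45b, Gadd45g, Wee1 and Btg2. Their response to CORT in each tissue, and how it differed between the tissues, was known when they were picked, so those values describe the genes and the adjusted p-values printed with them are no independent evidence. Male C57BL6/J mice, 8 weeks old at the start, received either CORT (corticosterone, the main glucocorticoid of rodents) at 40 mg/kg or vehicle alone (Veh: DMSO, Tween-80 and water) under the skin every day for 8 weeks. No allele was altered in any group. Liver and duodenum, called the intestine here, gave 3 CORT and 3 Veh libraries each, 12 in all, from 50 mg of tissue per sample. The labels number the libraries of a group as biological replicates without tying them to animals, so p-values measure the spread between these samples.

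Cell division is driven by cyclin-dependent kinases (CDKs) bound to cyclins. The CIP/KIP inhibitors (Cdkn1a, Cdkn1b and Cdkn1c, encoding p21, p27 and p57) bind many cyclin-CDK complexes, while the INK4 inhibitors (Cdkn2b and Cdkn2c, encoding p15 and p18) bind CDK4 and CDK6. GADD45 proteins are small stress-induced proteins that bind p21, PCNA and the kinase MAP3K4, WEE1 blocks entry into mitosis by phosphorylating CDK1, and BTG2 is an antiproliferative protein that promotes shortening of mRNA tails. Hepatocytes of the adult liver are mostly quiescent, whereas the intestinal epithelium is renewed all the time from dividing cells in the crypts, which makes the 2 tissues very different settings for such genes.

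Levels are TPM, which is relative transcript abundance scaled for transcript length and to a fixed total within each library. Read numbers cannot be recovered from it, so precision rests on the spread among the 3 libraries of a group. Folds called log2 fold changes are on the log2(TPM + 1) scale, which understates the change of low genes. They come from limma, fitted to every gene averaging 1 TPM or more in some group, with Benjamini-Hochberg adjusted p-values. A gene was called changed at an adjusted p of 0.05 or less with a fold over 1.5. The tissues were what their labels say: Alb, encoding serum albumin, lay between 32823 and 59476 TPM in liver libraries and between 0.13 and 0.39 TPM in intestine libraries, and Lct, encoding lactase, was at 0.01 TPM or less in liver and between 203 and 602 TPM in intestine. The treatment was seen in both. Of 5 genes known to respond to glucocorticoids (Fkbp5, Tsc22d3, Per1, Zbtb16 and Sgk1), 3 were called higher with CORT in liver (Fkbp5, Zbtb16 and Sgk1) and 3 in intestine (Fkbp5, Tsc22d3 and Zbtb16), and the other fold changes were also above 0. Fkbp5, a co-chaperone of the glucocorticoid receptor, rose from between 7.14 and 19.5 TPM to between 221 and 273 TPM in liver (log2 fold change 4.23, SE 0.32, adjusted p = 0.00178) and from between 8.68 and 23.3 TPM to between 252 and 379 TPM in intestine (log2 fold change 4.30, SE 0.34, adjusted p = 0.00450).

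Cdkn1a was low in vehicle liver, ranking 7th of the 10 genes, and had the highest mean of them in CORT liver. It measured 0.66, 2.00 and 1.65 TPM in liver Veh1, Veh2 and Veh3, and 147, 98.1 and 130.1 TPM in liver CORT1, CORT2 and CORT3. The lowest CORT library was far above the highest Veh library. The mean rose 87.1-fold, from 1.44 ± 0.70 TPM (SD, n = 3) to 125 ± 25 TPM (SD, n = 3), which was a log2 fold change of 5.72 (SE 0.26, limma adjusted p = 0.000518) and ranked 6th from the top of 11699 genes tested. In intestine the gene was already high without CORT. Its levels there were 117, 127 and 136.5 TPM in Veh1, Veh2 and Veh3 and 223, 154 and 158 TPM in CORT1, CORT2 and CORT3. Every CORT library lay above every Veh library, but the distance was small beside that in liver, with a 1.41-fold higher mean and a log2 fold change of 0.47 (SE 0.17, limma adjusted p = 0.208) that did not pass.

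Cdkn1a has 2 windows, each for its own start site, in the RefSeq promoter table, and the stretches before them are shown because Cdkn1a had the largest response and is the textbook target of p53. The first lies at chr17:29090729-29090978 and the second at chr17:29093519-29093768 (GRCm38.p6, plus strand, RefSeq), each being the 250 bases upstream of a start, written 5′ to 3′. Capitals mark the p53 response element in the first, a 20-base match with 1 mismatch to the paired half-site consensus that begins 51 bases upstream of the start, and the GC box GGGCGG in the second, found 2 times. The tables hold 1 value per gene, so which start was used was not measured.
Cdkn1a, upstream start: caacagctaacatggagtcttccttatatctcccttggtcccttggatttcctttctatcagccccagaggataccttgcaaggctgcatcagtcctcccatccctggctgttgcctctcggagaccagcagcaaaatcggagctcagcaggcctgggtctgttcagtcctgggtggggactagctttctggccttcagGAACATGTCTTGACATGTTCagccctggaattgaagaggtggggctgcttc
Cdkn1a, downstream start: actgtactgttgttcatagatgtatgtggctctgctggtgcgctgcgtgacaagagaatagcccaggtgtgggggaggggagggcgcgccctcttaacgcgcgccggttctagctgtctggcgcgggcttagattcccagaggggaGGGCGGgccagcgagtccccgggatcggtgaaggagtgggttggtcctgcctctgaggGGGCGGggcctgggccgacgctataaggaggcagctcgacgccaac
The p53 element was searched without a spacer and with up to 2 mismatches, after the sequence had been looked at. Its consensus reads the same on both strands. It was found in 1 of the 10 windows available for 8 of the 10 genes, and in 0.798% of 32851 windows of 300 bases, each running from 250 bases before to 50 after a start. The glucocorticoid response element, AGAACA and TGTTCT separated by 3 bases, was searched on both strands with up to 2 mismatches in its 12 fixed bases. None of the 10 windows held it, against 1.84% of all windows. A single window, that of Cdkn2c with GC boxes, held a half-element (AGAACA or TGTTCT), against 19.0% of all. The FOXO core GTAAACA, on either strand, was in none of the 10 and in 3.65% of all, and a GC box (GGGCGG or its reverse complement CCGCCC) was in 7 of the 10 and in 35.7% of all. The GC box overlaps none of the other motifs as spelled, while the half-element is part of the full element. These are matches of letters in short windows and say nothing of elements farther away. Wee1 and Cdkn1c had no window in the table.

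Cdkn1b, which encodes p27 and is widely expressed in resting cells, overlapped between the groups in both tissues. Liver libraries Veh1 to Veh3 had 5.70, 9.16 and 7.33 TPM and CORT1 to CORT3 had 7.62, 8.41 and 8.83 TPM. In intestine the Veh libraries had 20.2, 16.7 and 16.3 TPM and the CORT libraries 17.5, 22.4 and 17.6 TPM. The log2 fold changes were 0.16 (SE 0.18, limma adjusted p = 0.592) in liver and 0.11 (SE 0.15, limma adjusted p = 0.732) in intestine.

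Cdkn1c, an imprinted gene whose product p57 is expressed in differentiated, non-dividing cells, was low in liver at 0.84, 1.28 and 1.67 TPM in Veh1 to Veh3. It stood at 2.60, 3.64 and 3.04 TPM in liver CORT1 to CORT3, above all 3 Veh libraries, with a mean 2.45-fold higher. The log2 fold change of 0.86 (SE 0.20) had a limma adjusted p of 0.0505, just outside the limit. Median-ratio scaling divides each library by its median ratio to the gene averages of its tissue. With this scaling the log2 fold change was 0.80 with a limma adjusted p of 0.0449, which passed. No other setting passed. The adjusted p was 0.0503 with a pseudocount of 0.1, 0.134 with no filter on low values and 0.0964 with a block for the replicate number. Without single libraries it ran from 0.0764 to 0.1345. Intestine Veh libraries had 6.0, 7.73 and 9.14 TPM and CORT libraries 8.17, 5.68 and 8.99 TPM, which overlapped with almost equal means of 7.62 and 7.61 TPM.

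Of the INK4 genes, Cdkn2b had lower values with CORT in intestine, and Cdkn2c overlapped between the groups in both tissues. Cdkn2b, best known as a target of TGF-beta signaling, measured 55.9, 49.5 and 36.8 TPM in intestine Veh1 to Veh3 and 16.5, 24.5 and 23.0 TPM in CORT1 to CORT3. All CORT libraries lay under all Veh libraries, and the mean was 0.450 of the Veh mean. The log2 fold change of -1.11 (SE 0.21) had a limma adjusted p of 0.0516, again just outside the limit, and 0.0472, 0.0425 and 0.0392 with a pseudocount of 0.1, with median-ratio scaling and without the pancreatic genes described below. It was 0.110 with no filter on low values and 0.128 with a block for the replicate number. Without single libraries it ran from 0.088 to 0.147, so the change was not called in any of those fits. In liver the gene was listed at 0, 0.33 and 0.31 TPM in Veh and at 0.19, 0.18 and 0 TPM in CORT, too low to be tested. Cdkn2c, encoding p18, had 2.61, 4.93 and 4.97 TPM in liver Veh libraries and 2.58, 3.56 and 3.46 TPM in liver CORT libraries. In intestine it was the steadiest of the 10 genes, at 7.97, 8.35 and 8.05 TPM with vehicle and 8.72, 8.27 and 7.86 TPM with CORT. Its log2 fold changes were -0.27 (SE 0.23, limma adjusted p = 0.501) in liver and 0.024 (SE 0.11, limma adjusted p = 0.929) in intestine.

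Gadd45b was called higher with CORT in both tissues, alone among the 10 genes. It is an early response gene downstream of TGF-beta and NF-kappaB that feeds into the p38 and JNK kinases. Liver Veh1 to Veh3 had 0.82, 0.96 and 1.87 TPM, and liver CORT1 to CORT3 had 110.0, 20.6 and 67.5 TPM. The CORT libraries spread over 5.35-fold but none came near the Veh range. The mean rose 54.3-fold, from 1.22 ± 0.57 to 66.0 ± 44.7 TPM (SD, n = 3 each), with a log2 fold change of 4.66 (SE 0.56, limma adjusted p = 0.00693). In intestine the Veh libraries had 4.95, 8.91 and 11.7 TPM and the CORT libraries 32.8, 24.3 and 25.4 TPM, without overlap. The mean rose 3.23-fold, with a log2 fold change of 1.64 (SE 0.28, limma adjusted p = 0.0392). This intestinal call held without Veh1 (adjusted p = 0.0357) but not without any other single library, where the adjusted p was 0.102 without Veh2, 0.0584 without Veh3, 0.106 without CORT1, 0.0993 without CORT2 and 0.0926 without CORT3.

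The stretch at chr10:80929841-80930090 (GRCm38.p6, plus strand, RefSeq) is the 250 bases upstream of the start of Gadd45b. It is shown because Gadd45b is the member called higher in both tissues. Capitals mark its GC box, here read as CCGCCC, which begins 158 bases upstream of the start. The window held neither the glucocorticoid response element nor its half-element nor the p53 element as searched above.
Gadd45b: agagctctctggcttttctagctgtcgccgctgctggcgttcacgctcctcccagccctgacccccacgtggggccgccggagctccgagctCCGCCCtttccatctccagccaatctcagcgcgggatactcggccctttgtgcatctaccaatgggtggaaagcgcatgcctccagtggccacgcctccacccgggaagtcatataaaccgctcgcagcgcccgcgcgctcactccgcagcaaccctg

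Gadd45a and Gadd45g were not called in either tissue. Gadd45a, which p53 induces after DNA damage, had 8.53, 20.6 and 4.81 TPM in liver Veh1 to Veh3 and 1.54, 5.38 and 2.86 TPM in liver CORT1 to CORT3. Only CORT2 reached into the Veh range, by passing Veh3, and the log2 fold change of -1.42 (SE 0.52) had a limma adjusted p of 0.145. In intestine it had 47.9, 37.4 and 52.7 TPM with vehicle and 33.7, 51.6 and 24.2 TPM with CORT, with a log2 fold change of -0.38 (SE 0.28, limma adjusted p = 0.495). Gadd45g, known as a cytokine-responsive member of the family, was the most variable of the 10 genes in liver. Its levels were 10.9, 153 and 52.1 TPM in liver Veh1 to Veh3 and 175, 34.6 and 113 TPM in liver CORT1 to CORT3, so the groups overlapped over most of their range and the log2 fold change of 0.96 had an SE of 0.96 (limma adjusted p = 0.568). In intestine Gadd45g was lower and tighter, at 9.44, 9.83 and 13.5 TPM with vehicle and 19.5, 19.2 and 14.1 TPM with CORT. These did not overlap, and the log2 fold change of 0.64 (SE 0.19, limma adjusted p = 0.141) did not pass.

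Wee1 was called higher in intestine and was not called in liver. Intestine Veh1 to Veh3 had 7.07, 7.35 and 7.39 TPM and CORT1 to CORT3 had 12.9, 14.7 and 14.3 TPM. Both groups were narrow and far apart. The mean rose 1.93-fold, from 7.27 ± 0.17 to 14 ± 0.95 TPM (SD, n = 3 each), and the log2 fold change was 0.86 (SE 0.11, limma adjusted p = 0.0215). The call held without Veh1 (adjusted p = 0.0489) and without CORT1 (0.0489) and was lost without Veh2 (0.0785), Veh3 (0.10), CORT2 (0.0574) or CORT3 (0.0703), while the log2 fold change stayed between 0.82 and 0.91. In liver it had 2.49, 4.68 and 3.58 TPM with vehicle and 5.41, 3.60 and 3.37 TPM with CORT, with a log2 fold change of 0.17 (SE 0.24, limma adjusted p = 0.685). Btg2, a p53 target and immediate early gene, overlapped between the groups in both tissues. Its liver levels were 9.64, 39.4 and 6.97 TPM with vehicle and 4.54, 5.08 and 20.7 TPM with CORT (log2 fold change -0.74, SE 0.73, limma adjusted p = 0.558). In intestine it measured 30.8, 29.1 and 40.1 TPM with vehicle and 41.2, 64.1 and 38.8 TPM with CORT (log2 fold change 0.49, SE 0.22, limma adjusted p = 0.291).

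**Figure D1:**
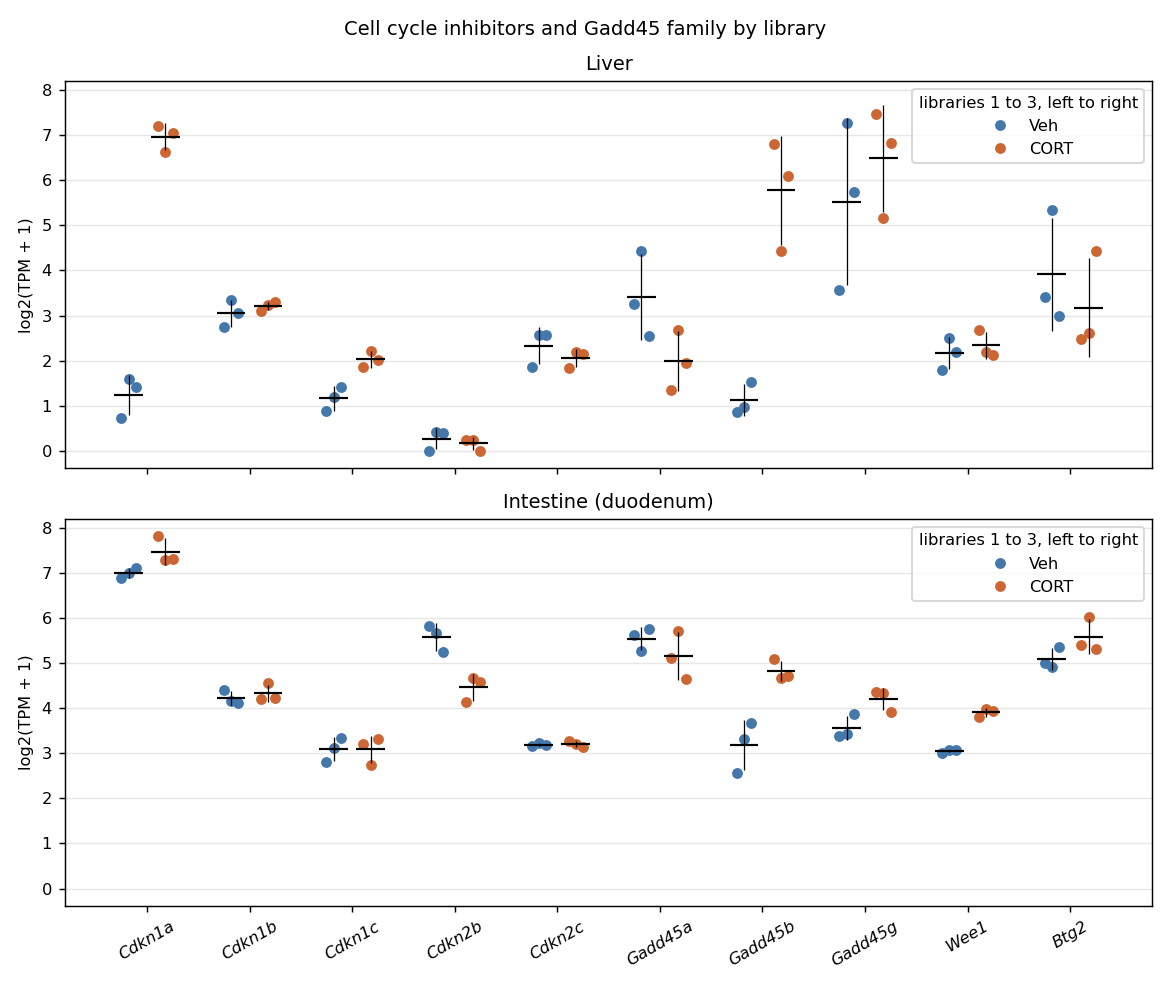
Level of each gene as log2(TPM + 1) in the liver (upper panel) and the intestine (lower panel), with 1 point per library, Veh in blue and CORT in orange, libraries 1 to 3 from left to right; the horizontal bar is the mean of 3 libraries and the vertical line its SD. The liver points of Cdkn1a and Gadd45b are far apart between Veh and CORT, and Cdkn1a sits in the intestine, with or without CORT, near where CORT liver does.

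In liver, 9 of the 10 genes averaged 1 TPM or more in some group and were tested, and all 9 did so in both groups. Of the 9, 2 were called (Cdkn1a and Gadd45b), both higher, against 6.92% of all 11699 genes tested, 4.91% being called higher and 2.01% lower. Veh and CORT did not overlap for 3 of the 9 (those 2 and Cdkn1c), against 32.2% of all genes tested. In intestine all 10 were tested, and 2 were called higher (Gadd45b and Wee1), against 2.15% of 13607 genes, with 1.23% higher and 0.919% lower. Veh and CORT did not overlap for 5 of the 10, of which Cdkn1a, Gadd45b, Gadd45g and Wee1 were higher with CORT and Cdkn2b lower, against 26.4% of all genes tested. The median log2 fold change was 0.17 over the 9 genes in liver and 0.29 over the 10 in intestine, beside 0.078 and -0.012 over all genes tested. Since the genes were chosen with these contrasts known, nothing is read from the counts.

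**Figure D2:**
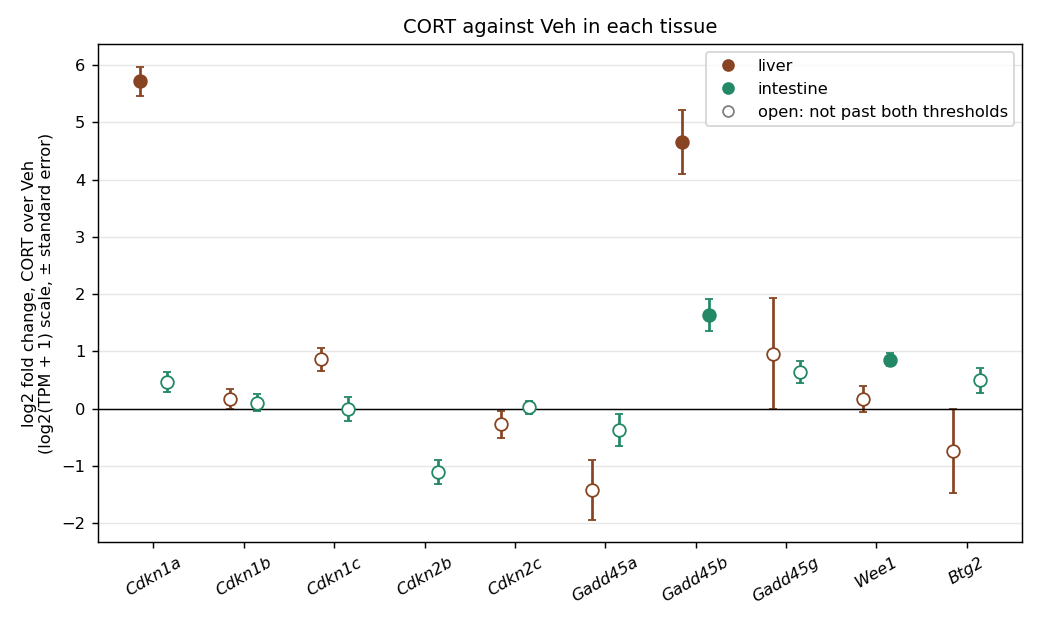
Log2 fold change of CORT over Veh on the log2(TPM + 1) scale for each gene in liver (brown) and intestine (green), with the standard error from limma as bars; filled points passed an adjusted p of 0.05 with a fold over 1.5, and Cdkn2b has no liver point because it was too low to be tested. Cdkn1a and Gadd45b in liver, at 5.72 and 4.66, stand above all other points, the next being Gadd45b in intestine at 1.64.

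The difference between the tissues was tested as an interaction in a fit of all 12 libraries. Of the 10 genes, 2 were called, against 3.60% of 14806 genes. The log2 fold change of Cdkn1a was 5.25 larger in liver than in intestine (SE 0.33, limma adjusted p = 2.84e-05), and that of Gadd45b was 3.02 larger (SE 0.70, limma adjusted p = 0.0416). The Cdkn1a call held without each of the 12 libraries in turn, with adjusted p-values up to 0.000234. The Gadd45b call held only without intestine Veh1 (adjusted p = 0.0363) or without liver CORT2 (adjusted p = 0.00259), and had adjusted p-values from 0.0604 to 0.0980 without each of the others. Wee1, called in intestine alone, was not shown to differ between tissues (-0.69, SE 0.27, limma adjusted p = 0.199). The same holds for Cdkn1c (0.87, SE 0.29, limma adjusted p = 0.136) and for Cdkn2b (1.01, SE 0.28, limma adjusted p = 0.0791), whose liver values near 0 leave little room for a change on this scale. Gadd45a (-1.04), Btg2 (-1.24), Cdkn2c (-0.29), Gadd45g (0.32) and Cdkn1b (0.059) had adjusted p-values from 0.439 to 0.925.

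Liver and intestine were also set side by side without CORT. The Veh levels enter the contrasts known when the genes were picked, so these values too describe the genes and are no independent evidence. TPM values are relative to each library's own total and the tables were made separately, so a level set across tissues depends on what else each tissue expresses. Over all genes tested the median log2 difference was -0.68 (liver minus intestine), and 65.6% of 14806 genes were called. Of the 10 genes, 9 were called, 8 lower in liver and 1 higher. Cdkn1a differed most, at 1.44 TPM in liver against 127 TPM in intestine, an 88.2-fold higher mean in intestine (log2 difference -5.75, SE 0.23, limma adjusted p = 1.19e-09). With CORT, liver and intestine had means of 125 and 178 TPM, a ratio of 1.42. Cdkn2b had 0.213 TPM in liver against 47.4 TPM in intestine (log2 difference -5.31, SE 0.20, limma adjusted p = 5.99e-10). It was too low to be tested within liver and entered this fit through the intestine alone, so its direction was largely set by the filter. Gadd45a (-2.13, SE 0.46, limma adjusted p = 0.00143), Gadd45b (-2.06, SE 0.49, limma adjusted p = 0.00279) and Cdkn1c (-1.93, SE 0.21, limma adjusted p = 5.71e-06) were also lower in liver, by more than the shift of all genes. Cdkn1b (-1.17), Wee1 (-0.88) and Cdkn2c (-0.86) lay closer to that shift, and none of these 3 was called after median-ratio scaling, at -0.44, -0.22 and -0.18. Gadd45g was higher in liver (1.96, SE 0.78, limma adjusted p = 0.0406), although liver Veh1 lay within the intestinal range. That call was kept without liver Veh1 and lost without liver Veh2 (1.09, adjusted p = 0.174), liver Veh3 (0.0947), or intestine Veh1 (0.0920), Veh2 (0.0878) or Veh3 (0.0601). Btg2 was not called (-1.17, SE 0.61, limma adjusted p = 0.101), and was without liver Veh2 (-1.89, adjusted p = 0.00662).

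The order of the mean levels differed between tissues and between treatments. Vehicle liver had Gadd45g highest (71.9 TPM), then Btg2 (18.7), Gadd45a (11.3), Cdkn1b (7.40), Cdkn2c (4.17), Wee1 (3.58), Cdkn1a (1.44), Cdkn1c (1.26), Gadd45b (1.22) and Cdkn2b (0.213). The neighbours in this order that did not overlap in their 3 libraries were Cdkn1b and Cdkn2c, Wee1 and Cdkn1a, and Gadd45b and Cdkn2b. In CORT liver Cdkn1a led (125 TPM), followed by Gadd45g (108), Gadd45b (66.0), Btg2 (10.1), Cdkn1b (8.29), Wee1 (4.13), Gadd45a (3.26), Cdkn2c (3.20), Cdkn1c (3.09) and Cdkn2b (0.123), with only Cdkn1b from Wee1 and Cdkn1c from Cdkn2b free of overlap. Vehicle intestine had Cdkn1a highest (127 TPM), with no overlap with Cdkn2b (47.4), which overlapped with Gadd45a (46.0) and that with Btg2 (33.3). Cdkn1b (17.7) did not overlap with its neighbours on either side, and Gadd45g (10.9), Gadd45b (8.51), Cdkn2c (8.12), Cdkn1c (7.62) and Wee1 (7.27) each overlapped with the next. In CORT intestine Cdkn1a (178 TPM) did not overlap with Btg2 (48.0), then came Gadd45a (36.5), Gadd45b (27.5), Cdkn2b (21.3), Cdkn1b (19.2), Gadd45g (17.6) and Wee1 (14), each overlapping with the next, and Cdkn2c (8.28) and Cdkn1c (7.61) lay below the range of Wee1.

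The genes differed in how far the libraries of a group lay apart. In liver the residual SD on the log2(TPM + 1) scale was 1.56 for Gadd45g, 1.18 for Btg2, 0.89 for Gadd45b and 0.82 for Gadd45a, against a median of 0.225 over all genes tested. Between 95.7% and 98.7% of the tested genes had a smaller one. The highest Gadd45g value of vehicle liver was 14-fold the lowest. Cdkn1b (0.22) and Cdkn1c (0.23) were near the median, and Cdkn1a was at 0.38. In intestine Gadd45b (0.42) and Gadd45a (0.42) were again the most variable, while Cdkn2c (0.052) and Wee1 (0.069) were among the steadiest, with 0.735% and 2.08% of the genes tested having a smaller SD.

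Single liver libraries stood out for several of the genes. Liver Veh2 held the highest Veh value for 7 of the 10 genes, including Gadd45a, Gadd45g and Btg2. Intestine Veh3 also held the highest Veh value of its tissue for 7 of the 10. The share over all genes was not counted, so nothing is read from these counts. In liver Veh2, Myc, a growth-promoting immediate early gene, was at 44.6 TPM against 1.2 and 3.95 TPM in Veh1 and Veh3. Among CORT livers, CORT1 was highest, CORT3 next and CORT2 lowest for Cdkn1a, Gadd45b and Gadd45g, and the order was the reverse for Gadd45a. Without liver Veh2 the log2 fold change of Gadd45a was -0.91, that of Gadd45g 1.83 and that of Btg2 -0.033, none of them called. Leaving out each liver library in turn gave log2 fold changes from 5.46 to 5.89 for Cdkn1a and from 4.15 to 5.33 for Gadd45b, and both stayed called each time.

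**Figure D3:**
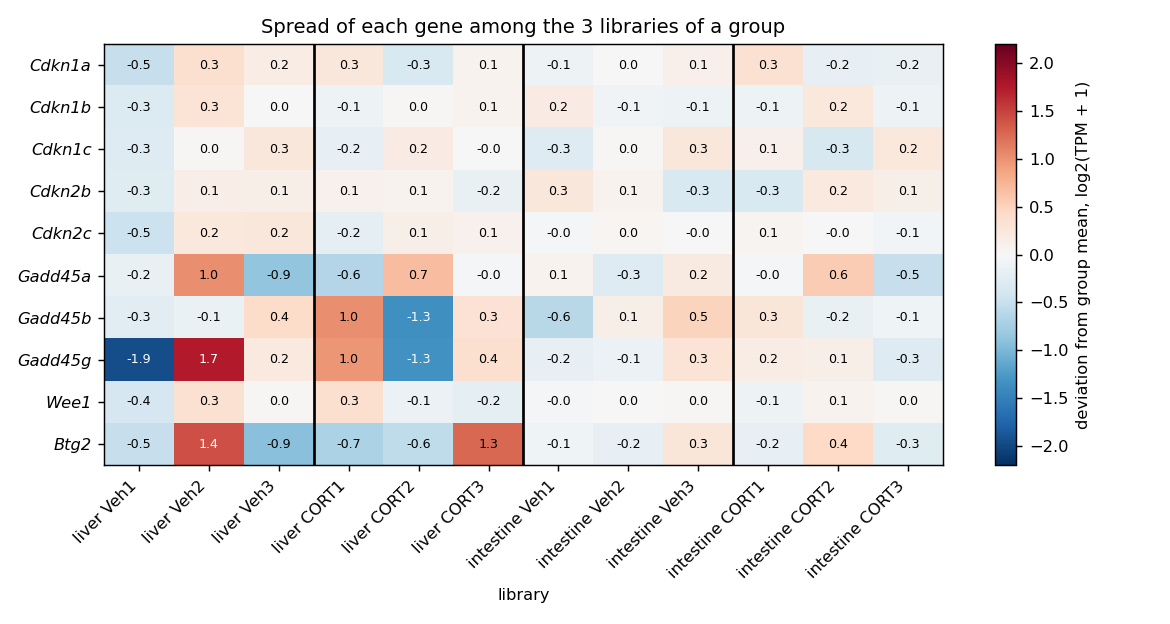
Deviation of each gene in each library from the mean of its own group of 3, in log2(TPM + 1) units, red for above and blue for below; vertical lines separate the 4 groups. The widest deviations are those of Gadd45g, Btg2, Gadd45a and Gadd45b in liver, while the rows of Cdkn2c and Wee1 are nearly white in the intestine.

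In bulk tissue, fewer cells of a type and less RNA per cell cannot be told apart. In the intestine the sums of enterocyte, B and plasma cell and hepatocyte markers did not overlap between CORT and Veh. Those of the other cell type lists overlapped, acinar genes included. Pancreatic acinar genes, 37 of 37 found, summed to 54858 TPM in intestine Veh2 and 49246 TPM in Veh3 but to 8409 TPM in Veh1 and between 9020 and 10811 TPM in CORT libraries. Of these, 34 of the 36 tested had fold changes under 0 and none was called (28 at an unadjusted p under 0.05). The list includes genes the duodenum expresses itself, such as Reg1 and Zg16, while Cela3b and Try4 were at 0 in all 3 CORT libraries. Veh1 had 4.95 TPM of Gadd45b, 7.07 TPM of Wee1 and 55.9 TPM of Cdkn2b, where the CORT libraries ran from 24.3 to 32.8, from 12.9 to 14.7 and from 16.5 to 24.5 TPM. With the acinar genes removed and the libraries rescaled, the log2 fold changes were 1.61 for Gadd45b (adjusted p = 0.0437), 0.83 for Wee1 (0.0241) and -1.15 for Cdkn2b (0.0392). This corrects the total only, and leaves in any transcripts of the 3 genes that acinar cells contribute. Duodenal enterocyte markers (9 of 9 tested) summed to between 42392 and 46131 TPM with CORT and between 23956 and 36232 TPM with vehicle, with 5 fold changes above 0 and none called (3 at an unadjusted p under 0.05). B and plasma cell markers (4 of 5 tested) summed to between 224 and 528 TPM with CORT and between 823 and 1022 TPM with vehicle, with 3 fold changes below 0 and none called (2 at an unadjusted p under 0.05). Smooth muscle markers (5 of 5 tested, all below 0, none called, 2 at an unadjusted p under 0.05) summed to between 245 and 388 TPM and between 338 and 600 TPM. The sums of T cell markers (63.6 to 77.3 TPM with CORT, 62.9 to 98.0 TPM with vehicle) macrophage markers (173 to 266 and 157 to 258 TPM) and cholangiocyte markers (1653 to 1904 and 1858 to 2114 TPM) overlapped, and Clec4f of the macrophage list was called higher (log2 fold change 2.99, SE 0.24, adjusted p = 0.00450). Hepatocyte markers, of which the duodenum itself expresses Apoa1, summed to between 15815 and 21718 TPM with CORT and between 8404 and 12370 TPM with vehicle in intestine, with 6 of 6 tested above 0 (median log2 fold change 0.74), none called and 2 at an unadjusted p under 0.05. The part of acinar cells and of the other cell types in these results was not tested. In liver, hepatocyte markers summed to between 89952 and 107780 TPM with CORT and between 80279 and 113840 TPM with vehicle, and acinar, T cell, B and plasma cell, cholangiocyte and smooth muscle markers each summed to at most 44.8 TPM in any library. Duodenal enterocyte markers, some of which hepatocytes express too, summed there to between 3856 and 13854 TPM with CORT and between 7145 and 9219 TPM with vehicle. Of the 4 tested, Apoa4, an apolipoprotein, was called higher (log2 fold change 3.94, SE 0.70, limma adjusted p = 0.0239). Macrophage markers summed in liver to between 98.4 and 259 TPM with CORT and between 123 and 180 TPM with vehicle.

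Genes that work with these 10 in the cell cycle were read from 7 lists of 88 genes in all, which like the 10 were chosen with earlier results of these data known. In liver 58 of the 88 were tested and 5 were called, all higher. That is 8.62% of those tested, close to the 6.92% of all genes tested, so the calls are given gene by gene as a description. A median log2 fold change of 0.067 lay beside 0.078 for all genes. The genes called were Tob2, an antiproliferative relative of Btg2 (1.63, SE 0.35, limma adjusted p = 0.0398), the p53 targets Sesn2, a sestrin that restrains mTORC1 (0.77, SE 0.13, limma adjusted p = 0.0224), and Trp53inp1 (1.5, SE 0.28, limma adjusted p = 0.0280), the p38 kinase gene Mapk14 (0.89, SE 0.20, limma adjusted p = 0.0460), and Foxo1, a transcription factor that acts on cell cycle inhibitors (0.95, SE 0.20, limma adjusted p = 0.0357). Their levels are plain in single libraries. Tob2 had 9.02, 8.92 and 22.1 TPM in liver Veh1 to Veh3 and 40.7, 31.5 and 49.4 TPM in CORT1 to CORT3. Sesn2 had 2.11, 2.00 and 2.27 TPM with vehicle and 4.36, 4.53 and 4.06 TPM with CORT. Trp53inp1 had 5.29, 6.71 and 7.41 TPM with vehicle and 28.2, 12.7 and 21.9 TPM with CORT. In all 5 the CORT libraries lay above the Veh libraries, yet each call held without 1 library only and was lost without each of the other 5. The library in question was Veh3 for Tob2 (adjusted p = 0.0138 without it, otherwise up to 0.118), Veh2 for Sesn2 (0.0342, otherwise up to 0.102) and for Mapk14 (0.0421, otherwise up to 0.144), and CORT2 for Trp53inp1 (0.0129, otherwise up to 0.0885) and for Foxo1 (0.0316, otherwise up to 0.127). Of the other p53 list genes, Mdm2, the ubiquitin ligase that limits p53, and Ccng1 were chosen after their values were seen. Their liver log2 fold changes were 0.28 (SE 0.21, limma adjusted p = 0.434) and 0.023 (SE 0.12, limma adjusted p = 0.924). Of the 17 tested genes on that list, 11 had fold changes above 0 and 6 below. At an unadjusted p under 0.05, 4 were higher and 1 was lower. Of all 11699 genes tested in liver, 6837 had fold changes above 0 and 4862 below. At that unadjusted p, 1973 of them were higher and 1060 lower, so nothing is read from the counts of the list. The part of p53 was not tested.

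By list, 2 of the 17 tested genes of p53 and its targets were called in liver (median 0.18), 1 of 5 other CDK inhibitors, inhibitory kinases and BTG/TOB genes (median 0.040), 1 of 8 kinases downstream of GADD45 proteins (median 0.018) and 1 of 12 transcription factors known to act on these genes (median 0.14). None of the 8 cyclins, CDKs and CDC25 phosphatases (median -0.00085) nor of the 8 RB and E2F genes (median -0.026) was called. At an unadjusted p under 0.05 there were 3 and 2 of them, beside 1973 higher and 1060 lower of all 11699 genes tested. Ccnd1, encoding cyclin D1 and chosen here after its values were seen, had 9.90, 40.02 and 7.99 TPM in liver Veh1 to Veh3 and 2.76, 2.77 and 4.10 TPM in CORT1 to CORT3. Its groups did not overlap, and the log2 fold change of -1.93 (SE 0.54) had a limma adjusted p of 0.0794. The 10 mitosis and proliferation markers were below the limit of 1 TPM in liver, where they summed to between 1.07 and 3.96 TPM with vehicle and between 1.82 and 2.53 TPM with CORT.

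In intestine 83 of the 88 genes were tested and none was called by limma, with 14 at an unadjusted p under 0.05, 7 higher and 7 lower, and a median log2 fold change of 0.014. Of all 13607 genes tested 2.15% were called, and 1186 were higher and 1432 lower at an unadjusted p under 0.05. Their fold changes were above 0 for 6598 and below 0 for 7009, with a median of -0.012. Of 15 cyclins, CDKs and CDC25 phosphatases, 12 had fold changes below 0 (median -0.17), and so did 10 of 11 RB and E2F genes (median -0.29), none of them called. The transcription factors had 12 of 13 fold changes above 0 (median 0.18), the p53 list 13 of 19 (median 0.11), the kinases downstream of GADD45 proteins 4 of 8 (median 0.021) and the other CDK inhibitors 4 of 7 (median 0.069). The 10 mitosis and proliferation markers summed to between 161 and 217 TPM with vehicle and between 144 and 215 TPM with CORT, with 6 fold changes above 0, a median of 0.015 and none at an unadjusted p under 0.05. Mki67, encoding the proliferation antigen Ki-67, measured 11.3 ± 2.0 TPM with vehicle and 11.4 ± 3.5 TPM with CORT (SD, n = 3 each). No gene of the 7 lists was called for the difference between the tissues, with 11 of 83 at an unadjusted p under 0.05. Of all 14806 genes 3.60% were called for it, and 1742 were higher and 970 lower in liver at an unadjusted p under 0.05. In vehicle-treated tissue 59 of the 83 were called, 55 lower and 4 higher in liver. That is 71.1%, near the 65.6% of all genes tested, of which most (7634 of 9710) were lower in liver too, and all 10 mitosis markers were among the lower ones (median log2 difference -3.54, beside -0.68 for all genes). These markers averaged under 1 TPM in liver and entered this fit through the intestine alone, as did the other listed genes not tested in liver. Their direction was thus largely set by the filter.

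**Figure D4:**
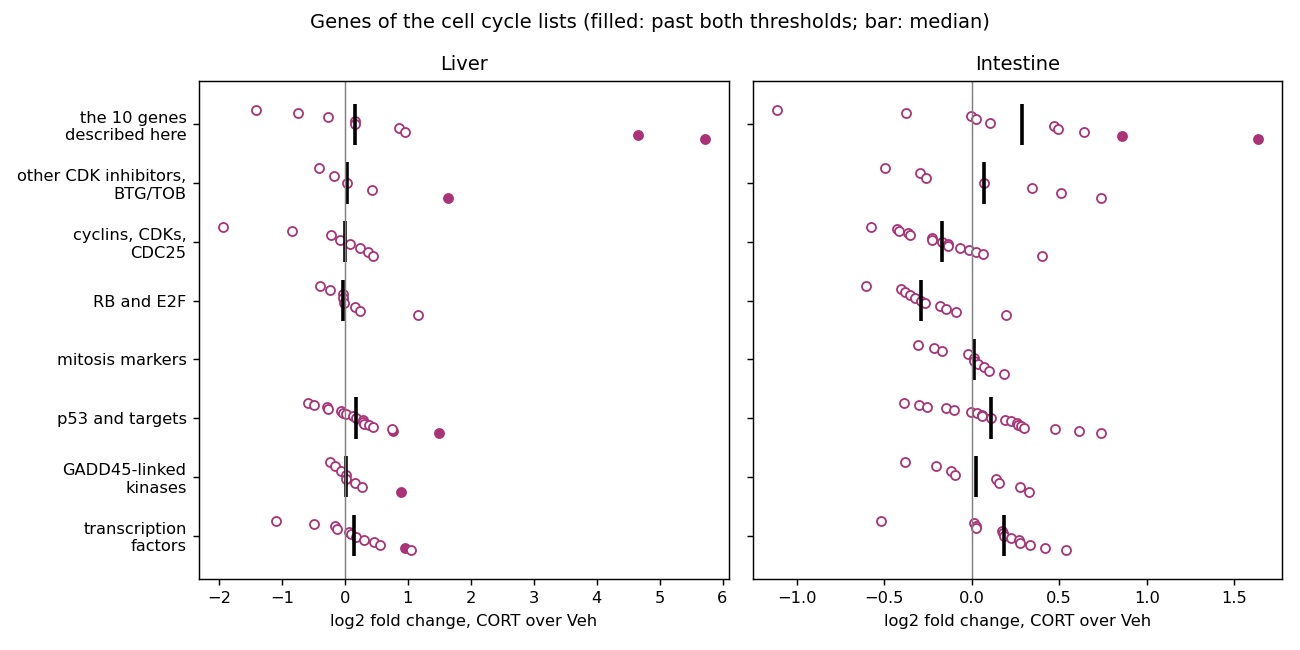
Log2 fold change of CORT over Veh for each tested gene of the 10 described here and of the 7 lists in liver (left) and intestine (right, with a narrower axis); filled points passed both thresholds and black bars are medians. Outside the 10 genes, the called points are 5 in liver and none in intestine, and the mitosis markers have no liver points because all were under 1 TPM.

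The genes whose levels over the 12 libraries were most like those of Cdkn1a, by Pearson's r of log2(TPM + 1) among 14806 genes, were Cyp2b10 (r = 0.982), Arl4a (0.974), Tacc2 (0.973), Sfxn1 (0.973) and Cemip2 (0.969). The 12 points come from 4 groups, of which vehicle liver is low for all 6 genes, so r is given as a description. Cyp2b10, a drug-metabolizing cytochrome P450, came closest. It had 1.56, 0.60 and 6.51 TPM in vehicle liver and 1052, 778 and 1141 TPM in CORT liver. In intestine it ran from 424 to 575 TPM with vehicle and from 1050 to 1143 TPM with CORT, so it too was far lower in vehicle liver than anywhere else. Sfxn1, encoding a mitochondrial serine transporter, ran from 26.5 to 35.7 TPM in vehicle liver and from 62.2 to 83.2 TPM in the 9 other libraries.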

How the data were processed

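Liver and duodenum of CORT-treated and vehicle-treated mice were profiled by RNA-seq, with 3 libraries per group and tissue, and groups and replicate numbers come from the labels. Per the paper's methods, the authors used SeqPrep and Sickle for trimming, HISAT2 (orientation mode) for alignment, StringTie for assembly and RSEM for quantification. They deposited gene-level TPM, 1 column for each library. The submitters' processing notes name the build GRCm39 and no tool versions. The authors called differentially expressed genes with DESeq2 from counts, which were not used here. TPM keeps no depth, so counting error is unknown.

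From these values log2(TPM + 1) was computed, and genes averaging 1 TPM or more in some group were fitted with limma 3.58.1 (lmFit, eBayes with trend) in R 4.3.3, per tissue for CORT against Veh and over all 12 libraries for the interaction and for the tissues without CORT. All adjusted p-values are limma's (Benjamini-Hochberg, over every gene tested). The fits were tested on simulated data. The members and gene lists were chosen with earlier results of these data known. Of the lists, genes that passed are named, beside 5 treatment controls and the 5 genes most like Cdkn1a. Alb, Lct, Myc, Ccnd1, Mdm2, Ccng1, Mki67, Clec4f, Apoa4 and the acinar genes named lie outside that rule and were chosen after their values were seen.

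Other settings tried were median-ratio scaling, a pseudocount of 0.1, a block for the replicate number, dropping the filter on low values, removal of 37 acinar genes with rescaling, and leaving out each library. Median-ratio scaling was done within each tissue, except that the comparison of tissues without CORT scaled all 12 libraries together. The adjusted p alone, without a limit on fold, was added after seeing the data, as were the p53 element and the GC box. Promoter windows are from RefSeq on GRCm38.p6, not the build of the tables, and were matched by symbol for 8 of 10 genes.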

Additional observations from a re-analysis of the deposited data

Results flagged for a closer look

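The effect of CORT differed between liver and intestine for 2 of the 10 genes by the test of the difference itself, limma's interaction term over the 12 libraries. For Cdkn1a the log2 fold change was 5.25 larger in liver (5.72 in liver, 0.47 in intestine), with 3 of 3 CORT libraries above all Veh libraries in each tissue. For Gadd45b it was 3.02 larger in liver (4.66 in liver, 1.64 in intestine), again with 3 of 3 CORT libraries above all Veh libraries in each tissue. Both genes were chosen with this difference known, so the test describes them.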

How the results depend on the processing

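Of the 10 genes, those called in liver were 2, and 2 or 3 under every alternative run, with Cdkn1a and Gadd45b called each time. In intestine 2 were called, 0 with no filter on low values, 0 with the replicate block, and 0 to 2 without single libraries. There were 3, with Cdkn2b added as lower, with a pseudocount of 0.1, with median-ratio scaling and without acinar genes. For the difference between tissues 2 were called, 1 with no filter and 1 to 2 without single libraries. In vehicle tissue 9 were called, 6 after median-ratio scaling and 8 to 9 without single libraries. Of the listed pathway genes 5 were called in liver, 0 with no filter, 1 with the replicate block, 7 with a pseudocount of 0.1 and 0 to 4 without single libraries. For the difference between tissues none was called, 3 after median-ratio scaling, 1 without acinar genes and 0 to 1 without single libraries. Over all genes, the 810 calls in liver became 283 with no filter, 307 with the replicate block and 247 to 831 without single libraries, and median-ratio scaling gave 550 higher and 466 lower in place of 575 and 235. The 292 in intestine became 52, 62 and 66 to 237 in the same order, with 38 higher and 14 lower with no filter in place of 167 and 125. The 533 for the difference became 336, 210 and 289 to 626, and 341 higher and 345 lower after median-ratio scaling in place of 340 and 193. The 9710 in vehicle tissue, 2076 higher and 7634 lower in liver, became 3865 higher and 4465 lower after that scaling. Tests with no filter adjust over more genes. Fewer libraries leave less to estimate the spread from.

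Some values changed sign. After median-ratio scaling they were 0.0081 for Cdkn1c in intestine and -0.038 for Cdkn1b in the difference. Without acinar genes they were -0.0085 for Cdkn2c and -0.0047 for Trp53inp1 in intestine. Without single libraries the liver log2 fold changes ran from -0.015 to 1.83 for Gadd45g and from -0.014 to 0.34 for Wee1. In intestine they ran from -0.15 to 0.17 for Cdkn1c, -0.0094 to 0.057 for Cdkn2c, -0.23 to 0.16 for Trp53inp1 and -0.0067 to 0.20 for Cdkn1b. For the difference they ran from -0.094 to 0.21 for Cdkn1b, -0.66 to 1.19 for Gadd45g, -0.52 to 0.40 for Tsc22d3, -0.42 to 0.26 for Fkbp5 and -0.56 to 0.0099 for Zbtb16. The cause was not tested. No listed pathway gene was called in intestine under any of these settings.

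The labels do not say whether liver and intestine libraries sharing a number came from the same mouse. Deviations from group means of libraries sharing a number had correlations from -0.12 to 0.073. These cannot settle it, since the tissues of a mouse need not deviate alike. The main fits treated all libraries as independent. With 3 libraries per group and no read counts, changes in low genes such as Cdkn2b in liver could not be judged.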
